A study of Mus musculus with 16 samples.

Results

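The nuclear genes for the subunits of respiratory complexes II to V were examined in tibialis anterior, a fast hindlimb muscle, of mice that carry 1 mutant allele of Dnm2 and of wild-type mice. Members were the protein-coding genes whose symbol was Sdha to Sdhd, Cyc1, Uqcr with any ending, Cox4 to Cox8 with a following letter, or began with Atp5, and whose counts summed to at least 160 over all libraries. This rule took 46 of 30037 genes: 4 of complex II, 9 of complex III, 16 of complex IV and 17 of complex V. Another 7 matching symbols were left out, 6 as pseudogenes and Cox7b2, which had 3 counts in all. No measured difference between groups entered the rule. The rule also took genes that are not structural subunits, such as Atp5s, the coupling factor B of the ATP synthase, and Cox7a2l, which joins complexes III and IV.

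RNA was sequenced from 16 libraries of male C57BL/6N mice aged 7 weeks, and every animal had received an oligonucleotide. WT ASO Control (n = 4) and Dnm2SL/+ ASO Control (n = 6) had a control oligonucleotide, and WT ASO1 (n = 2) and Dnm2SL/+ ASO1 (n = 4) had ASO1, an antisense oligonucleotide against Dnm2, which codes for the GTPase dynamin 2. Dnm2SL/+ is a model of autosomal dominant centronuclear myopathy according to the series title, and the labels give neither the dose of ASO1 nor the number of injections. The labels do not say whether muscles came from separate animals, so p-values measure the spread between these libraries. Libraries held 30148163 to 33667052 counts. Dnm2 itself was at 45.4 to 57.2 CPM in WT ASO Control, 35.2 to 65.1 CPM in Dnm2SL/+ ASO Control, 23.0 to 25.0 CPM in WT ASO1 and 26.6 to 35.2 CPM in Dnm2SL/+ ASO1. The ranges were apart in the wild type and met in the mutant at 1 library: the one labelled Dnm2SL/+ ASO Control 6 had 35.2 CPM, at the level of an ASO1 library, where the other 5 of its group had 46.4 to 65.1 CPM. Results were therefore also read with that library left out. The submitters changed the label of WT ASO Control 4 at a later date, so values without that library are given where they differ.

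As background, electrons enter the chain at complex I and at complex II, which is also the succinate dehydrogenase of the citric acid cycle. Complex III passes them from ubiquinol to cytochrome c, complex IV passes them to oxygen, and complex V makes ATP from the proton gradient that complexes I, III and IV build. Complex II is wholly nuclear encoded, whereas mitochondrial DNA gives the cytochrome b of complex III, the catalytic core of complex IV and part of the membrane sector of complex V. In muscle, several small subunits of complex IV have a contractile-tissue isoform and a ubiquitous one: Cox6a2, Cox7a1 and Cox8b are the muscle forms in the mouse, and Cox6a1, Cox7a2 and Cox8a the ubiquitous ones.

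Upstream sequence is shown for 3 members that carry the results below: Atp5b, the catalytic subunit, which had the highest level per length, and Cox6a1 and Cox8a, the ubiquitous isoforms that rose in the mutant. Sequences are from RefSeq on GRCm38.p6, read 5′ to 3′ on the strand of the gene, and are the longest stretch with no annotated exon within the 250 bases before the RefSeq start. Capitals mark a match to any of 3 motifs searched on both strands: GCGCATGC for NRF-1, CCGGAAG for the ETS family and TCAAGGTCA for the ERR receptors, all of which are known to bind promoters of respiratory genes.
Atp5b, chr10:128083057-128083272, plus strand: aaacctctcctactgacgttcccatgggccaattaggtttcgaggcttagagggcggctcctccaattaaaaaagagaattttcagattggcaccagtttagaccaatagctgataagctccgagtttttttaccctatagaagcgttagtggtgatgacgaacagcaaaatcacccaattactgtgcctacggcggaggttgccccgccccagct
Cox6a1, chr5:115348982-115349129, minus strand: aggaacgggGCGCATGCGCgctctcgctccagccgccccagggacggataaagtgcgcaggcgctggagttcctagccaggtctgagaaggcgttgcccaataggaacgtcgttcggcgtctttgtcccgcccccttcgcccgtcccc
Cox8a, chr19:7217617-7217866, minus strand: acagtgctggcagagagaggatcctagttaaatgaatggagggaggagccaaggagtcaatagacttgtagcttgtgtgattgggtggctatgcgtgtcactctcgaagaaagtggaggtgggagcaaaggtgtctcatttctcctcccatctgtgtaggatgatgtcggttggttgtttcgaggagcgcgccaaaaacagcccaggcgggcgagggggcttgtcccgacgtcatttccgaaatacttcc

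In the stretch of Cox6a1, the NRF-1 letters lay on both strands in 1 overlapping run, and neither of the other stretches held any of the 3 motifs in these letters. Promoters were matched by symbol for 33 members. Over their 250 upstream bases, the NRF-1 letters were in 5 of 33 members (Sdhb, Cox6a1, Atp5g2, Atp5k and Atp5l), or 15.2%, against 2.56% of the 27025 genes with a promoter. The ETS letters were in 9 members, or 27.3%, against 7.83%, and the ERR letters in 1 member, Atp5g3, or 3.03%, against 0.422%. Cox6a1 was also among the members with the ETS letters, with a match outside the stretch shown. These are matches of letters only, and no binding was measured.

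Levels are given as CPM, the count scaled to library size after TMM normalization, and per kilobase of the principal transcript where genes are compared with each other. In WT ASO Control the members of complex V spanned the widest range, from 0.901 CPM per kb for Atp5g2 to 2261 CPM per kb for Atp5b, with a median of 247 CPM per kb. The medians were 320 CPM per kb for complex II, 388 CPM per kb for complex III and 225 CPM per kb for complex IV. Atp5b and Atp5a1, the beta and alpha subunits that form the catalytic head, were at 2261 and 1383 CPM per kb, and the next were Cox4i1 at 1008 CPM per kb and Atp5g3, a gene for the c ring, at 859 CPM per kb. In complex II, Sdha led with 475 CPM per kb, followed by Sdhb with 356, Sdhd with 285 and Sdhc with 93.4 CPM per kb.

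Some members were read far below their partners in the same complex. In WT ASO Control, Cox7c was at 3.03 ± 0.117 CPM (SD, n = 4), Atp5l at 9.40 ± 1.54 CPM and Atp5g2 at 0.659 ± 0.141 CPM. Most of the transcript of each lay in stretches of at least 50 bases with at least 95% identity to transcripts of other genes: 58.3% for Cox7c, 86.8% for Atp5l, shared with 11 genes, and 88.2% for Atp5g2. Of the 46 members, 23 had at least 1 such near-identical partner, among them Atp5o with 92.0% of its transcript and Atp5g1 with a stretch shared with 32 genes. Reads from such stretches can be split or dropped in counting, so the levels and differences of these members are uncertain. Sdha, Sdhb, Sdhd, Cyc1, Uqcrc1, Uqcrfs1, Cox6a1, Cox8a, Cox8b, Atp5b and Atp5s had none. Exons of 12 members overlap a gene on the other strand, and Atp5g2 overlaps Mir688 and Atp5o a second gene of the same name on the same strand.

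The first question was how the mutation alone was reflected in these genes, which the comparison of Dnm2SL/+ ASO Control with WT ASO Control addresses. Some members were lower in the mutant, led by Sdha, and Cox6a1 and Cox8a were higher, but the share that passed was not above that of all genes. Of the 46 members, all of which were tested, 8 fell and 2 rose at an adjusted p under 0.05 (edgeR). The 8 that fell make 17.4% of members, close to the 16.4% of the 15649 genes tested that fell. The 2 that rose make 4.35% of members against 15.7% of all genes. The median log2FC of members was -0.05, and 41.3% were above 0, against a median of 0.00 and 50.3% for all genes. The members that fell were Sdha of complex II, Uqcrc1 and Uqcrc2 of complex III, Cox6a2 of complex IV, and Atp5a1, Atp5b, Atp5c1 and Atp5s of complex V.

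Sdha, the flavoprotein subunit that oxidises succinate, changed most among the abundant members. It was at 1253, 1392, 1418 and 1451 CPM in WT ASO Control, and ranged from 906 to 1131 CPM with a median of 1035 CPM in Dnm2SL/+ ASO Control. Every mutant library was below every wild-type library. The log2FC was -0.44 ± 0.0675 (SE, edgeR adjusted p = 0.000159), or 73.7% of the wild-type level.

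The other subunits of complex II did not pass the test. Sdhb, the iron-sulfur subunit, was at 350, 386, 434 and 457 CPM in WT ASO Control and at 356 to 418 CPM (median 375 CPM) in Dnm2SL/+ ASO Control, with a log2FC of -0.08 (95% interval -0.28 to 0.11). Sdhc and Sdhd are the membrane anchors that bind ubiquinone. Sdhc was at 288, 294, 296 and 307 CPM in the wild type and at 282 to 347 CPM (median 291 CPM) in the mutant, with a log2FC of 0.03 (-0.12 to 0.18). Sdhd was at 323, 337, 366 and 377 CPM and at 307 to 384 CPM (median 330 CPM), with a log2FC of -0.06 (-0.22 to 0.10). The groups overlapped for all of Sdhb, Sdhc and Sdhd, and none of the 3 intervals reached the value of Sdha.

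In complex III, the 2 large core proteins on the matrix side fell. Uqcrc1 was at 960, 965, 1050 and 1082 CPM in WT ASO Control and at 736 to 968 CPM (median 836 CPM) in Dnm2SL/+ ASO Control, a log2FC of -0.25 ± 0.0843 (SE, edgeR adjusted p = 0.0302). Uqcrc2 was at 686, 727, 773 and 798 CPM and at 609 to 698 CPM (median 650 CPM), a log2FC of -0.19 ± 0.0635 (SE, edgeR adjusted p = 0.0301). For both, the highest mutant library lay within the wild-type range. Neither nuclear-encoded electron carrier of the complex passed: the log2FC was -0.09 for Cyc1, cytochrome c1, and -0.04 for Uqcrfs1, the Rieske iron-sulfur protein. Uqcrh, the hinge protein, had a log2FC of 0.18 and an edgeR adjusted p of 0.0681.

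In complex V, the genes for the alpha, beta and gamma subunits and Atp5s fell. Atp5b was at 4042, 4192, 4503 and 4589 CPM in WT ASO Control and at 3227 to 3787 CPM (median 3627 CPM) in Dnm2SL/+ ASO Control, with no overlap. Its log2FC was -0.28 ± 0.0694 (SE, edgeR adjusted p = 0.00556). Atp5a1 was at 3237, 3423, 3494 and 3518 CPM and at 2475 to 3137 CPM (median 2822 CPM), again with no overlap, a log2FC of -0.28 ± 0.0744 (SE, edgeR adjusted p = 0.00864). The alpha and beta subunits alternate in the same ring, and both were at 82.2% of the wild-type level.

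Atp5c1, the gamma subunit that turns inside that ring, was at 694, 728, 777 and 783 CPM in WT ASO Control. It was at 627 to 703 CPM (median 656 CPM) in Dnm2SL/+ ASO Control, with overlap and a log2FC of -0.17 ± 0.0609 (SE, edgeR adjusted p = 0.0429). Atp5s was read at a far lower level, at 17.3, 19.7, 20.3 and 21.6 CPM and at 13.1 to 17.1 CPM (median 15.4 CPM), with no overlap and a log2FC of -0.36 ± 0.0779 (SE, edgeR adjusted p = 0.00252). The 13 other members of complex V had log2FC of -0.39 to 0.18, and none passed. Among them were the delta and epsilon subunits of the same rotor, Atp5d (0.08) and Atp5e (0.00).

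Both members that rose belonged to complex IV, where they make 12.5% of 16 members against the 15.7% of all genes. Cox8a was at 12.7, 13.3, 13.8 and 14.6 CPM in WT ASO Control and at 15.1 to 21.7 CPM (median 18.8 CPM) in Dnm2SL/+ ASO Control, a log2FC of 0.44 ± 0.101 (SE, edgeR adjusted p = 0.00365). Cox6a1 was at 13.2, 14.8, 15.4 and 15.4 CPM and at 15.8 to 23.2 CPM (median 17.9 CPM), a log2FC of 0.35 ± 0.109 (SE, edgeR adjusted p = 0.0218). For both, every mutant library was above every wild-type library. Cox6a2, the muscle partner of Cox6a1, was at 524, 529, 586 and 595 CPM and at 421 to 559 CPM (median 455 CPM), a log2FC of -0.26 ± 0.0904 (SE, edgeR adjusted p = 0.0367), with overlap. The 13 other members of complex IV had log2FC of -0.16 to 0.23, and none passed. Among them were Cox4i1 (-0.07), Cox5a (-0.14) and Cox5b (0.05).

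**Figure D1:**
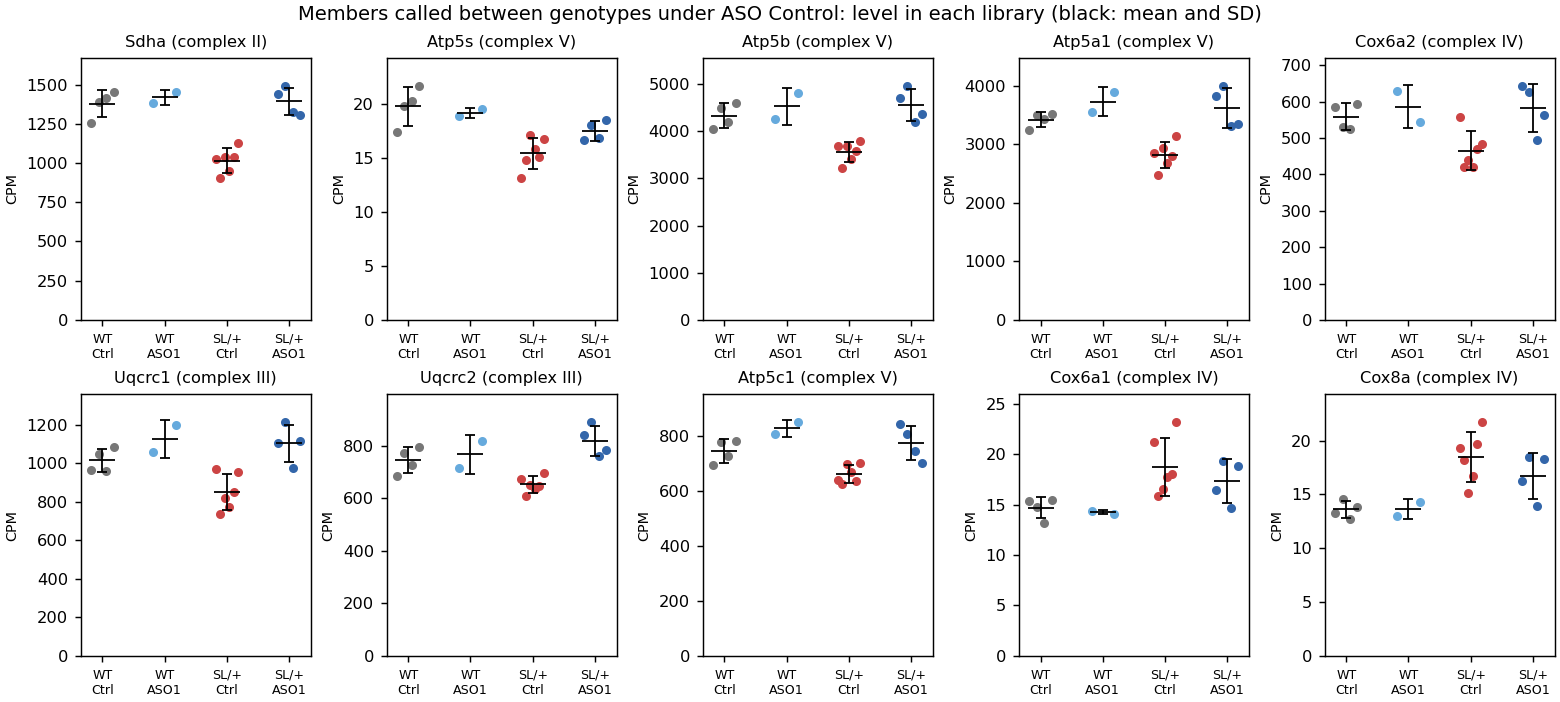
CPM of the 10 members that passed between genotypes under the control oligonucleotide, one panel each; points are libraries of WT ASO Control (n = 4), WT ASO1 (n = 2), Dnm2SL/+ ASO Control (n = 6) and Dnm2SL/+ ASO1 (n = 4), and black marks are the mean and SD. Sdha spans 906 to 1131 CPM in Dnm2SL/+ ASO Control, below all other libraries, whereas Cox6a1 and Cox8a are above all WT ASO Control libraries.

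Groups did not overlap for 4 members that were lower in the mutant, 8.70% of members against 12% of all genes, and for 2 that were higher, against 11.3% of all genes. With CPM by total counts, a scaling added after these values were seen, 0 members were lower without overlap, against 3.55% of all genes, and 10 were higher, 21.7% of members against 25.9% of all genes. Sdha passed in all 25 alternative settings, and Atp5a1, Atp5b and Atp5s in all but scaling by total counts. Uqcrc1 passed in 16 of the 25, Uqcrc2 and Cox6a2 in 15 each, and Atp5c1 in 12. The number that fell was 4 without WT ASO Control 4 and likewise without Dnm2SL/+ ASO Control 2, 3, 4 or 5, and 5 without WT ASO Control 2. The number that rose was 1, Cox8a, without WT ASO Control 3. It was 3, with Uqcrh added, without WT ASO Control 4 and likewise without Dnm2SL/+ ASO Control 3. The same 8 fell and the same 2 rose when the library labelled Dnm2SL/+ ASO Control 6 was dropped, with a log2FC of -0.46 for Sdha, -0.29 for Atp5b, 0.40 for Cox8a and 0.29 for Cox6a1.

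The direction of this comparison rests on the scaling. With scaling by total counts and no TMM factor, the median of all genes moved from 0.00 to 0.23, and 19 members rose, where 36.2% of all genes did, and 1, Sdha, fell, where 5.93% of all genes did. A change of scaling moves every gene by nearly the same amount, so it cannot alter where a member stands relative to the median of all genes: the median of members was 0.05 below that median, Sdha 0.44 below it, Atp5b 0.28 below it and Cox8a 0.44 above it. All directions here are relative to the bulk of genes. As shares of all counts, the members took 1.90% ± 0.0828 in the 4 libraries of WT ASO Control, 1.97% ± 0.141 in the 6 of Dnm2SL/+ ASO Control and 2.21% ± 0.178 in the 4 of Dnm2SL/+ ASO1 (mean ± SD).

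The second question was how the same genes stood in mutants that received ASO1, from Dnm2SL/+ ASO1 against Dnm2SL/+ ASO Control. Members were higher across all 4 complexes. Of the 46, 14 rose and 0 fell (edgeR), or 30.4%, against 6.96% of all genes that rose and 8.06% that fell. At an unadjusted edgeR p under 0.05, 26 were higher and 0 lower, against 2229 and 2285 of the 15649 genes tested. DESeq2 called 16 higher and 0 lower, against 1331 and 1476 of all genes. The median log2FC was 0.22 for members and 0.01 for all genes, and 91.3% of members were above 0 against 51.0% of all genes. Members of complex II rose in 2 of 4, of complex III in 4 of 9, of complex IV in 2 of 16 and of complex V in 6 of 17. This comparison shares the Dnm2SL/+ ASO Control libraries with the first, so opposite signs in the 2 comparisons are not independent of each other.

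Sdha was at 1310, 1329, 1443 and 1491 CPM in Dnm2SL/+ ASO1, all above the highest library of Dnm2SL/+ ASO Control (1131 CPM). The log2FC was 0.46 ± 0.0675 (SE, edgeR adjusted p = 0.000667), the smallest p of any member. Sdhb was at 415, 456, 466 and 532 CPM, with overlap, a log2FC of 0.28 ± 0.0900 (SE, edgeR adjusted p = 0.0441). Sdhd was at 343, 383, 407 and 437 CPM and Sdhc at 299, 343, 344 and 383 CPM. Their log2FC were 0.22 and 0.18, and neither passed (edgeR adjusted p of 0.0519 and 0.107).

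In complex III, both core proteins and both nuclear-encoded electron carriers rose. Uqcrc1 was at 976, 1107, 1117 and 1212 CPM (log2FC 0.38 ± 0.0841, SE, edgeR adjusted p = 0.00733) and Uqcrc2 at 761, 783, 841 and 890 CPM (0.33 ± 0.0633, SE, edgeR adjusted p = 0.00303). Both were above all libraries of Dnm2SL/+ ASO Control, as was Uqcrfs1, at 570, 592, 616 and 657 CPM against 443 to 561 CPM (0.25 ± 0.0682, SE, edgeR adjusted p = 0.0228). Cyc1 was at 520, 599, 610 and 674 CPM against 424 to 544 CPM, with overlap (0.31 ± 0.0799, SE, edgeR adjusted p = 0.0154). The small subunits Uqcr10, Uqcr11, Uqcrb, Uqcrh and Uqcrq were all above 0, from 0.07 to 0.18, and none passed.

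In complex IV, Cox6a2 was at 496, 564, 627 and 643 CPM in Dnm2SL/+ ASO1 (log2FC 0.32 ± 0.0903, SE, edgeR adjusted p = 0.0250). Cox7b, a small subunit with no tissue isoform pair here, was at 238, 279, 285 and 310 CPM against 193 to 261 CPM (0.30 ± 0.0886, SE, edgeR adjusted p = 0.0326). Both overlapped with the controls. Cox8a, at 13.9, 16.2, 18.3 and 18.5 CPM, and Cox6a1, at 14.7, 16.4, 18.9 and 19.4 CPM, had log2FC of -0.14 and -0.12, and neither passed.

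In complex V, the catalytic head was higher with no overlap. Atp5b was at 4186, 4360, 4709 and 4956 CPM (log2FC 0.35 ± 0.0693, SE, edgeR adjusted p = 0.00321) and Atp5a1 at 3307, 3341, 3814 and 3991 CPM (0.36 ± 0.0743, SE, edgeR adjusted p = 0.00436). Atp5c1 was at 704, 747, 807 and 845 CPM, just above the highest control at 703 CPM (0.23 ± 0.0608, SE, edgeR adjusted p = 0.0196). Atp5o, the stalk subunit that confers oligomycin sensitivity, was at 159, 184, 201 and 205 CPM against 145 to 169 CPM (0.26 ± 0.0679, SE, edgeR adjusted p = 0.0168). Atp5g1, a c-ring gene read at 14.4 to 16.6 CPM, and Atp5f1, the b subunit of the stalk, also passed (edgeR adjusted p of 0.0280 and 0.0431). Atp5s was at 16.6 to 18.4 CPM, with a log2FC of 0.18 that did not pass.

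**Figure D2:**
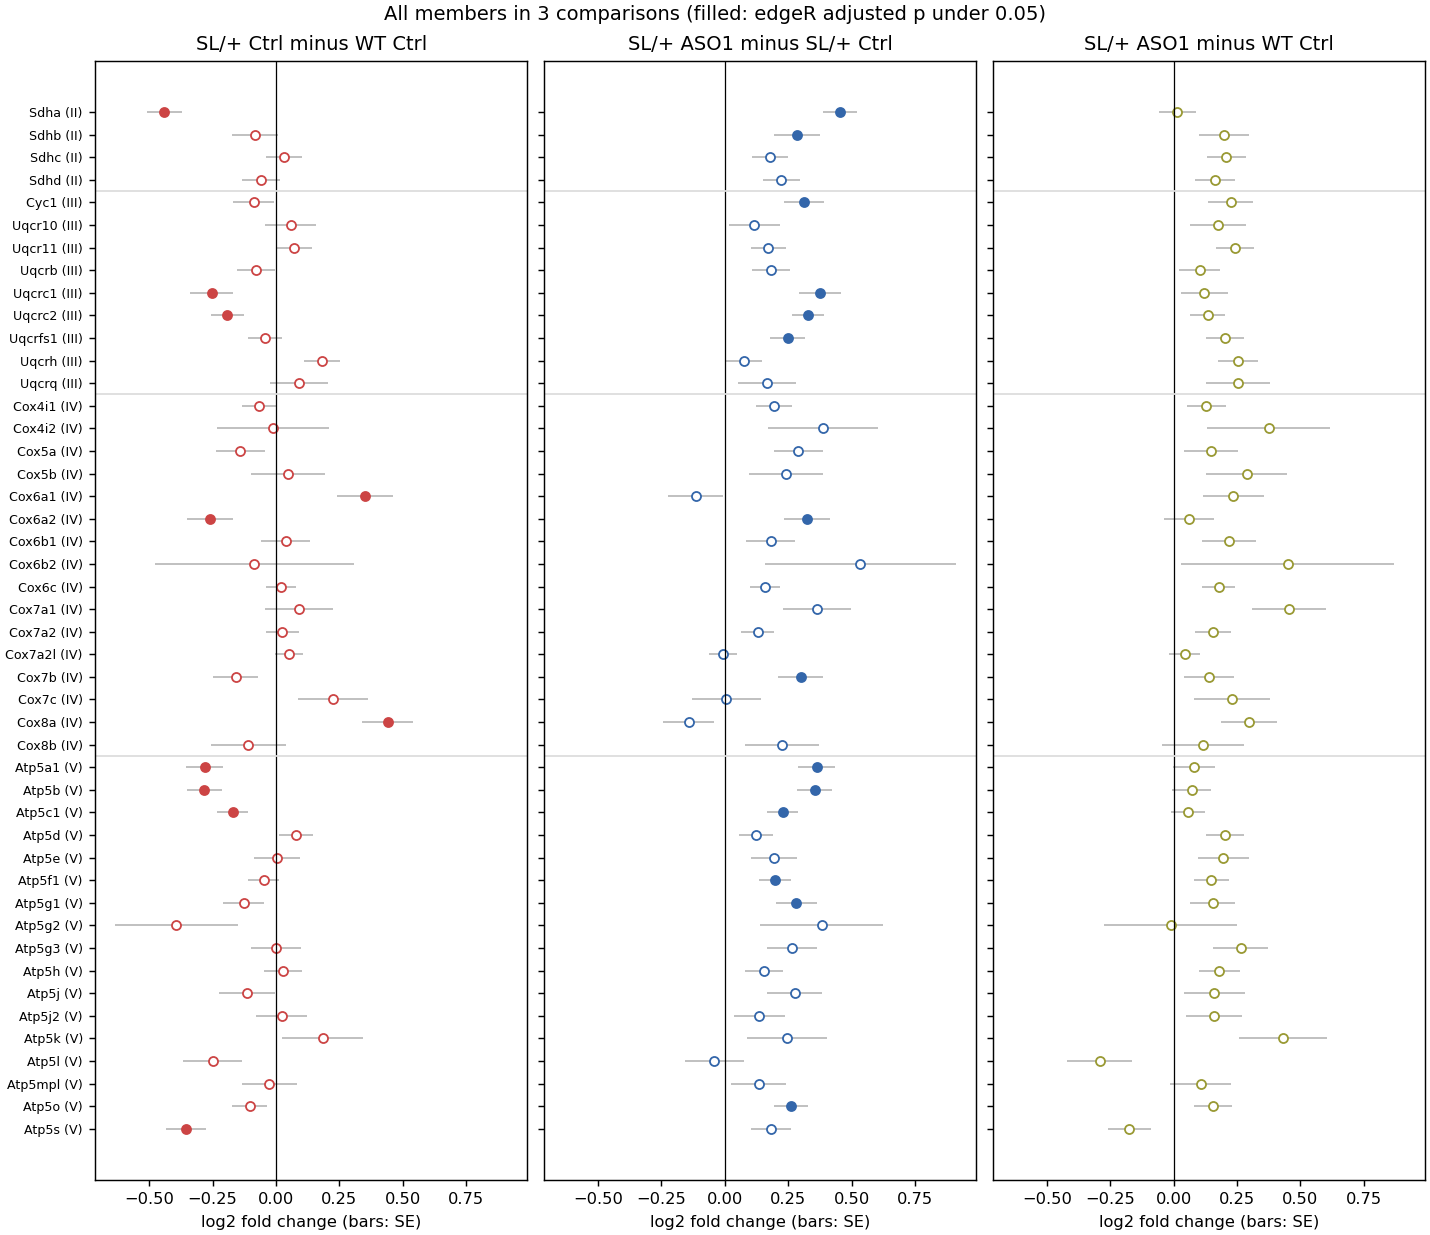
Log2 fold change with its SE for all 46 members, ordered by complex, in 3 comparisons: Dnm2SL/+ ASO Control minus WT ASO Control, Dnm2SL/+ ASO1 minus Dnm2SL/+ ASO Control, and Dnm2SL/+ ASO1 minus WT ASO Control; filled points passed at an edgeR adjusted p under 0.05. In the first panel 8 members are filled below 0 and 2 above it, in the second 14 above 0, and in the third none is filled.

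Groups did not overlap for 8 members, all higher, or 17.4%, against 5.1% of all genes. With CPM by total counts it was 1 member, or 2.17%, against 1.52% of all genes. The number that rose was 5 without Dnm2SL/+ ASO1 2, 6 without Dnm2SL/+ ASO1 1, 8 without Dnm2SL/+ ASO Control 4, and 23 when the library labelled Dnm2SL/+ ASO Control 6 was dropped. Over all genes, 853, 809, 801 and 1288 rose in those fits, in the same order. Those 23 were the 14 with Sdhc, Sdhd, Uqcr11, Cox4i1, Cox5a, Cox6c, Cox7a1, Atp5g3 and Atp5j, so that all 4 subunits of complex II passed there, and the log2FC of Sdha was then 0.49. Among the 14, Atp5f1 passed in the fewest of the 25 alternative settings, 13, followed by Sdhb with 15 and Cox7b with 17. Sdha, Uqcrc1, Uqcrc2, Atp5a1 and Atp5b passed in all 25 alternative settings. Scaling by total counts moved the median of all genes to -0.13 and left these 5 as the members that rose, where 3.03% of all genes rose. Relative to the median of all genes, the median of members was 0.22 higher.

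Treated mutants were then set against WT ASO Control. No member passed in either direction (edgeR), where 1.66% of all genes rose and 2.86% fell. At an unadjusted edgeR p under 0.05, 14 members were higher and 1 lower, against 1566 and 1826 of the 15649 genes tested. DESeq2 called 3 members higher and 0 lower, against 524 and 729 of all genes. The median log2FC was 0.16 against 0.01 for all genes, and 43 of 46 members were above 0. Sdha had a log2FC of 0.02 (95% interval -0.14 to 0.17), Atp5b 0.07 (-0.09 to 0.23) and Atp5a1 0.08 (-0.09 to 0.25). The smallest p belonged to Uqcrh, with a log2FC of 0.26 and an edgeR adjusted p of 0.0771. Without Dnm2SL/+ ASO1 3, 5 members rose, where 375 of 15623 genes did. Once the library labelled Dnm2SL/+ ASO Control 6 was dropped, 1 member rose, where 308 of 15584 genes did. The count of 0 thus rests on those libraries. With scaling by total counts, 11 members rose, where 4.29% of all genes did.

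In wild-type muscle, ASO1 was compared in 2 libraries only. No gene of any kind passed with edgeR (0% of all genes), whereas DESeq2 called 75 genes higher and 26 lower, 0 of them members. At an unadjusted edgeR p under 0.05 there were 1605 genes, 884 higher and 721 lower. Of these, 9 were members, all of them higher. The median log2FC of members was 0.15 against -0.02 for all genes, and 43 of 46 were above 0. Both WT ASO1 libraries were above all 4 WT ASO Control libraries for 19 members, or 41.3%, against 9.72% of all genes. Cox4i1, for example, was at 936 and 967 CPM against 734, 760, 783 and 808 CPM (log2FC 0.30, edgeR adjusted p = 0.308). Atp5o was at 200 CPM in both libraries against 163 to 179 CPM, and Atp5c1 at 807 and 851 CPM against 694 to 783 CPM. Sdha, at 1384 and 1453 CPM, lay within or just above the wild-type range. With CPM by total counts, the number without overlap was 12, or 26.1%, against 6.91% of all genes.

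The effect of ASO1 was not shown to differ between genotypes for any member: none passed for the interaction, where 2.82% of all genes did (edgeR). At an unadjusted edgeR p under 0.05 there were 3 members, against 3052 of the 15649 genes tested. DESeq2 called 1 member, against 408 genes higher and 668 lower. Sdha came nearest, with an interaction of 0.41 ± 0.115 on the log2 scale (SE, edgeR adjusted p = 0.0618). It was the 1 member called by DESeq2, and it also passed with a filter of CPM above 1 in 4 libraries, without WT ASO Control 1, and with the library labelled Dnm2SL/+ ASO Control 6 dropped. Between genotypes under ASO1, 1 member of 46 (2.17%) passed against 3.51% of all genes. This was Atp5l, the g subunit of complex V, at 6.12, 7.53, 8.28 and 8.77 CPM in Dnm2SL/+ ASO1 and 11.4 and 11.6 CPM in WT ASO1 (log2FC -0.58 ± 0.152, SE, edgeR adjusted p = 0.0462). It is 1 of the members with near-identical copies, and it did not pass in 13 of the 16 fits that left out a library, among them those without either WT ASO1 library.

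Summed over members, complex V held more than the other complexes together. In WT ASO Control the sums were 2432 ± 144 CPM for complex II, 3697 ± 229 CPM for complex III, 3175 ± 216 CPM for complex IV and 11084 ± 551 CPM for complex V (SD, n = 4). The mutants under control oligonucleotide had 2039 ± 145, 3454 ± 299, 3020 ± 307 and 9614 ± 630 CPM in the same order (SD, n = 6), and in Dnm2SL/+ ASO1 2595 ± 200, 4176 ± 339, 3560 ± 337 and 11914 ± 987 CPM (SD, n = 4). WT ASO1 was at 2484 and 2646 CPM for complex II and at 11655 and 12361 CPM for complex V. On the log2 scale, the mutant sum was lower by 0.26 for complex II and 0.21 for complex V, and by 0.10 and 0.08 for complexes III and IV, and the ranges of the groups overlapped for every complex. The library labelled Dnm2SL/+ ASO Control 6 had the highest sum of its group in all 4 complexes; without it the sums of complexes II and V lay below all WT ASO Control libraries, lower by 0.29 and 0.23 on the log2 scale. The sums are led by the few abundant subunits, since Atp5a1 and Atp5b make up most of complex V, and no test was run on them.

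**Figure D3:**
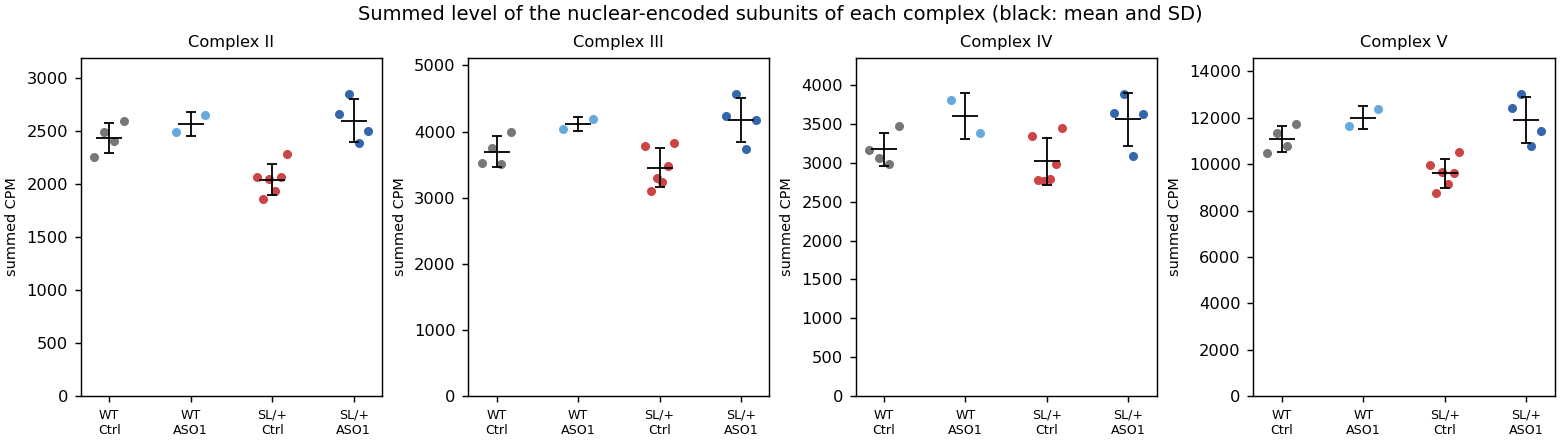
Summed CPM of the members of each complex in every library of the 4 groups, with black marks for the mean and SD; axes start at 0. For complex V the libraries of Dnm2SL/+ ASO Control lie between 8740 and 10545 CPM and those of WT ASO Control between 10486 and 11722 CPM.

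The balance of muscle and ubiquitous isoforms of complex IV is a ratio within a library and does not depend on scaling. Cox6a2 was counted 35.8 to 39.6 times as often as Cox6a1 in WT ASO Control, and 20.9 to 26.6 times (median 26.2) in Dnm2SL/+ ASO Control. In Dnm2SL/+ ASO1 the ratio was 29.9 to 39.2, and in WT ASO1 38.7 and 43.8. The log2 ratio was lower in the mutant by 0.61 ± 0.0645 (SE), a difference of -0.61 with an exact two-sided permutation p of 0.00952, the smallest that 6 against 4 libraries allow, and an adjusted p of 0.0214 over the 9 tests of isoform ratios. With ASO1 in the mutant it was higher by 0.43 ± 0.0995 (SE, exact permutation p = 0.00952, adjusted p = 0.0214).

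Cox8b and Cox8a gave the same order. The ratio was 10.5 to 13.5 in WT ASO Control, 7.35 to 9.97 (median 7.90) in Dnm2SL/+ ASO Control, 10.3 to 11.2 in Dnm2SL/+ ASO1, and 10.6 and 16.4 in WT ASO1. The log2 ratio differed by -0.56 ± 0.102 (SE) between genotypes and by 0.38 ± 0.0706 (SE) with ASO1 in the mutant, each with an exact permutation p of 0.00952 and an adjusted p of 0.0214. The 2 partners moved unequally: Cox8b was at 153, 161, 162 and 187 CPM in WT ASO Control and at 120 to 193 CPM (median 144 CPM) in Dnm2SL/+ ASO Control, which did not pass, while Cox8a rose as given above.

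Cox7a1 and Cox7a2 differed from these pairs. The ratio was 1.49 to 1.95 in WT ASO Control, 1.53 to 2.31 (median 1.81) in Dnm2SL/+ ASO Control, 1.93 to 2.40 in Dnm2SL/+ ASO1, and 1.49 and 1.74 in WT ASO1. Between genotypes the log2 ratio differed by 0.06 ± 0.123 (SE, exact permutation p = 0.667, adjusted p = 0.667), and the groups overlapped. The differences with ASO1 in the mutant (0.24, exact permutation p = 0.0762, adjusted p = 0.110) and between treated mutant and wild type (0.30, exact permutation p = 0.0571, adjusted p = 0.103) did not pass. Cox7a1 itself was at 194, 210, 241 and 267 CPM in WT ASO Control, 196 to 301 CPM (median 232 CPM) in Dnm2SL/+ ASO Control and 251, 301, 341 and 360 CPM in Dnm2SL/+ ASO1. Cox7a2 was at 123, 124, 130 and 143 CPM, at 125 to 146 CPM (median 131 CPM) and at 128, 142, 153 and 156 CPM. Neither passed in any comparison. For treated mutant against wild type, the ratios of Cox6a2 to Cox6a1 and of Cox8b to Cox8a differed by -0.17 and -0.18 on the log2 scale, with exact permutation p of 0.114 and 0.0857, where 4 against 4 libraries cannot go below 0.0286. Leaving out 1 of the 4 libraries of WT ASO Control or Dnm2SL/+ ASO1 raised the adjusted p of the 2 called ratios to 0.0536, with the fewer arrangements that 6 against 3 libraries allow, and kept their sign. With the library labelled Dnm2SL/+ ASO Control 6 dropped, the ratio of Cox6a2 to Cox6a1 differed by -0.56 between genotypes and that of Cox8b to Cox8a by -0.58 (exact permutation, adjusted p = 0.0357 for each).

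**Figure D4:**
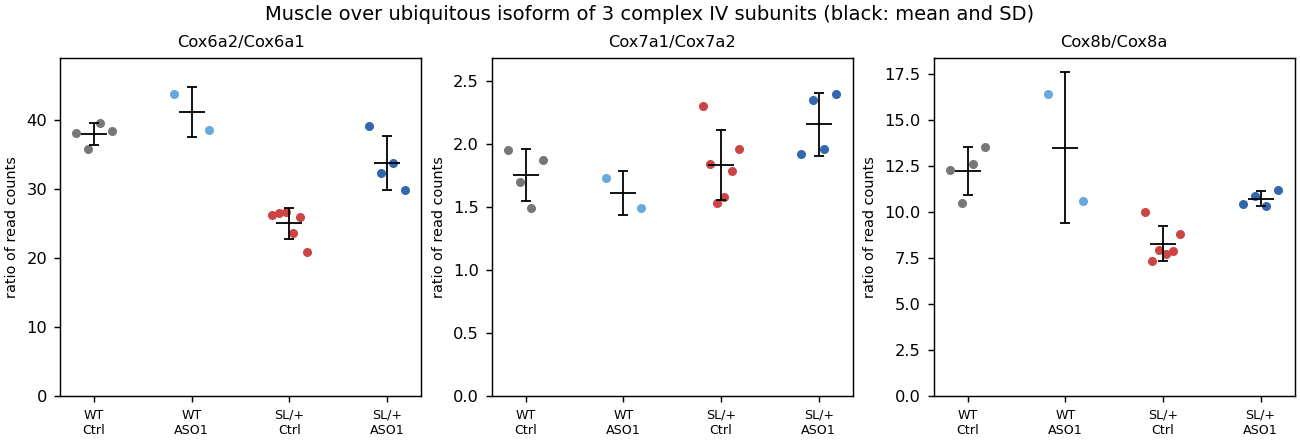
Ratio of the count of the muscle isoform to that of the ubiquitous isoform for 3 subunits of complex IV in every library, by group, with the mean and SD in black and axes from 0. The 6 Dnm2SL/+ ASO Control libraries are between 20.9 and 26.6 for Cox6a2/Cox6a1, below all other libraries, and overlap with the wild type for Cox7a1/Cox7a2.

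Differences were also set against the level of each member. Across all 46, Spearman's rho between mean CPM and log2FC was -0.32 between genotypes under ASO Control and 0.35 with ASO1 in the mutant. Among the 36 members of at least 50 CPM, a limit set with the values known, it was -0.56 and 0.56. Over all 15649 genes it was -0.22 and 0.10. The 8 members that fell had a median principal transcript of 1774.5 bases (680 to 2900) and a median level of 861 CPM, and the 38 others a median of 727 bases (360 to 4715) and 202 CPM. Across the 46 members, rho between transcript length and log2FC was -0.46 between genotypes and 0.35 with ASO1, against -0.10 and 0.02 over all genes. Genes are not independent replicates, and the 2 comparisons share libraries. By median, the members that fell were both longer and of higher level than the others, and the separate parts of level and length in the result were not tested.

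**Figure D5:**
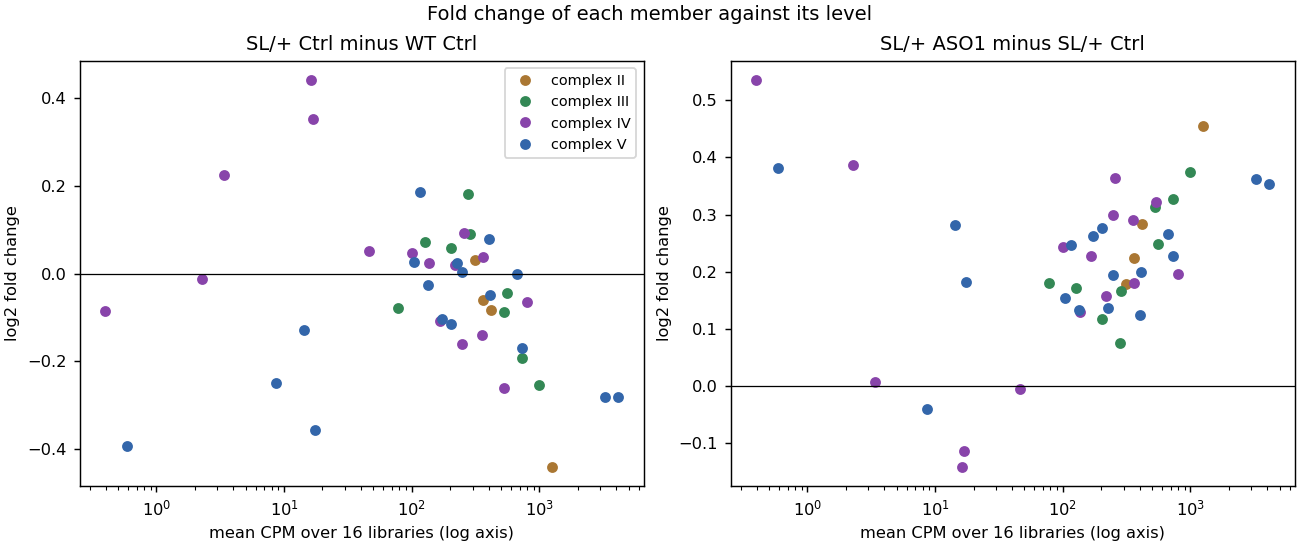
Log2 fold change of each of the 46 members against its mean CPM over the 16 libraries, on a log axis, coloured by complex, for Dnm2SL/+ ASO Control minus WT ASO Control on the left and Dnm2SL/+ ASO1 minus Dnm2SL/+ ASO Control on the right. Above 50 CPM, members of higher level lie lower on the left (rho -0.56) and higher on the right (rho 0.56); over all 46 members rho is -0.32 and 0.35. The lowest point on the left among them is Sdha.

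Genes that work with these subunits were read from the same fit, in which 16.4% of all genes fell and 15.7% rose between genotypes, and 6.96% rose and 8.06% fell with ASO1 in the mutant. Assembly factors of the 4 complexes moved in both directions between genotypes: of 36 tested, 9 fell (25.0%) and 7 rose (19.4%), with a median of -0.03. Coa7, an assembly factor of complex IV, had a log2FC of -0.61 (edgeR adjusted p = 1.4e-05) and Lrpprc, which stabilises mitochondrial mRNAs, -0.35 (edgeR adjusted p = 0.0011). Sdhaf4, which helps to insert flavinylated Sdha, had a log2FC of 0.41 (edgeR adjusted p = 0.0032) against the fall of Sdha itself. With ASO1 in the mutant, 6 assembly factors rose (16.7%) and 1 fell (median 0.11). Of 10 genes for cytochrome c and the synthesis of ubiquinone, the mobile carriers, 3 fell and 0 rose between genotypes, Coq2, Coq9 and Pdss1, and 7 rose with ASO1.

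The citric acid cycle, which shares Sdha with complex II, fell in 12 of 14 genes between genotypes (85.7%, median -0.31) and rose in 14 of 14 with ASO1 in the mutant (median 0.37). Suclg1, a subunit of the enzyme before succinate dehydrogenase, had a log2FC of -0.38 between genotypes (edgeR adjusted p = 0.00013). The mitochondrially encoded subunits of complexes III to V could be read for 2 genes only. The cytochrome b gene mt-Cytb had a log2FC of -0.54 (edgeR adjusted p = 0.00029) and mt-Co1, the catalytic subunit of complex IV, -0.56 (edgeR adjusted p = 0.00054), and both rose with ASO1, whereas mt-Co2, mt-Co3 and mt-Atp6 had 1, 11 and 161 counts in all libraries together. Of 15 regulators of mitochondrial biogenesis, 6 fell (40.0%) and 0 rose between genotypes, among them Polrmt, the mitochondrial RNA polymerase (-0.41), and Perm1 (-0.42).

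Markers of fibre type and of other cells moved with the same groups. The summed level of 13 fast-fibre genes was 157286 to 173859 CPM in WT ASO Control, 112438 to 129760 CPM in Dnm2SL/+ ASO Control and 134171 to 151575 CPM in Dnm2SL/+ ASO1. Between genotypes, 10 of them fell (76.9%, against 16.4% of all genes) and 1 rose. That of 12 slow-fibre genes was 325 to 537, 601 to 1018 and 634 to 874 CPM. Of these, 7 rose (58.3%, against 15.7% of all genes) and 0 fell, with 2 below 0. That of 10 macrophage genes was 41.7 to 94.1, 74.1 to 152 and 52.6 to 111 CPM, and 5 rose and 0 fell. That of 8 genes of fibro-adipogenic cells was 755 to 1938, 1757 to 2334 and 786 to 1872 CPM, and 4 rose and 0 fell. None of these 43 genes was at 0 in any library. A list of 7 myofibre genes, which checks the labelled tissue, shares Mylpf, Tnnt3 and Pvalb with the fast-fibre list, so the 2 sums are not separate readings. Its sum was 107702 to 115905 CPM in WT ASO Control, 87895 to 96955 CPM in Dnm2SL/+ ASO Control and 106111 to 112627 CPM in Dnm2SL/+ ASO1. It was thus lower in the mutant controls with no overlap, and 5 of the 7 fell between genotypes and 3 rose with ASO1. That of 6 endothelial genes was 478 to 576, 361 to 454 and 471 to 710 CPM, with the mutant controls again below those other 2 groups, and 1 fell between genotypes and 3 rose with ASO1. Of 6 genes of smooth muscle and pericytes, 2 fell and 1 rose between genotypes, and no tested gene of the adipocyte, Schwann cell and erythroid lists passed in either comparison. The library labelled Dnm2SL/+ ASO Control 6 had the highest slow-fibre sum, 1018 CPM, and the lowest fast-fibre sum, 112438 CPM, of all 16 libraries. In bulk muscle, fewer fibres of a type and less RNA per fibre cannot be told apart, and the part of these shifts in the values of the members was not tested.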

How the data were processed

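The authors deposited 1 table of raw read counts per gene, of whole numbers that were not normalized, for 16 libraries. TRI Reagent and the TruSeq Stranded mRNA kit were used for RNA and libraries, and the submitters' processing notes name cutadapt 1.10, Bowtie2 2.2.8, STAR 2.5.3a, HTSeq 0.6.1p1 and GRCm38. The annotation release, the strand setting and the handling of multiply mapped reads were not given in the sources used here.

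Gene IDs were named from GENCODE M21. Genes kept by filterByExpr were compared by quasi-likelihood F tests in edgeR 4.0.16 (R 4.3.3) on TMM-scaled counts, with 1 mean per group over all 16 libraries and Benjamini-Hochberg adjustment over the 15649 genes tested. DESeq2 1.42.0 was an alternative. SE was taken as |log2FC| divided by √F. Isoform ratios were tested by exact two-sided permutation over libraries. Near-identical copies were found with blastn 2.17.0+. The fits were tested on simulated data. No 2 libraries were duplicates. Members named in full are the Sdh genes, the isoform pairs and up to 12 called members per main comparison by smallest p. The members and lists were chosen with earlier results of these data known.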

Additional observations from a re-analysis of the deposited data

Results flagged for a closer look

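Of 93 sets of libraries (the level of a named member, an isoform ratio or a summed complex in a group of 4 to 6), 1 held a library that stood far from the others by Dixon's criterion, which chance alone gives in about 1 of 20 sets. Cox7a2, the ubiquitous isoform of a complex IV subunit, was at 146 CPM in the library labelled Dnm2SL/+ ASO Control 6 and at 125 to 133 CPM in the other 5 libraries of that group.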

How the results depend on the processing

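Scaling by total counts, with no TMM factor, changed most. Under it 19 members rose and 1 fell between genotypes under ASO Control, 5 rose with ASO1 in Dnm2SL/+, 11 rose for treated mutant against WT, and 0 fell between genotypes under ASO1. The log2 ratio of summed CPM between genotypes became -0.029, 0.13, 0.15, 0.021 and 0.056 for complexes II, III, IV, V and II to V, and with ASO1 in the mutant 0.22, 0.14, 0.11, 0.18 and 0.16. Between genotypes, the log2FC turned positive for Atp5c1 (0.058), Uqcrc2 (0.036), Cox8b (0.12), Sdhb (0.14) and Sdhd (0.17), and with ASO1 in the mutant that of Cox7a2 became -0.0034; of these only Atp5c1 and Uqcrc2 had been called. Upper-quartile scaling and no filter each left 4 that fell between genotypes under ASO Control and 0 that fell under ASO1, and the fit of only the groups compared also gave 0 there. DESeq2 called 3 for treated mutant against WT. For the interaction DESeq2 and a filter of CPM above 1 in 4 libraries each called 1, Sdha.

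Same-numbered libraries correlated at -0.12 to 0.25 in their deviations. Libraries of different number were not compared in this way, so these values cannot settle whether replicate numbers pair the libraries. With the replicate block, 1 member rose and 6 fell between genotypes, 15 rose with ASO1 in the mutant, 10 of them among the 14, 0 fell between genotypes under ASO1, and the log2FC of Sdhc and Cox7a2 between genotypes became -0.047 and -0.012.

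Leaving out each library in turn gave 4 to 8 members that fell and 1 to 3 that rose between genotypes, 5 to 23 that rose with ASO1, 0 to 5 for treated mutant against WT, 0 to 1 that fell under ASO1 and 0 to 1 for the interaction. The log2 ratio of Cox6a2 to Cox6a1 ranged from -0.64 to -0.56 between genotypes and from 0.36 to 0.49 with ASO1, that of Cox8b to Cox8a from -0.64 to -0.51 and from 0.35 to 0.43, and that of Cox7a1 to Cox7a2 between genotypes from -0.016 to 0.11. For other changes the cause was not tested. Members under 20 CPM rest on few counts, down to 3 in a library for Cox6b2.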

Other observations

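The 38 nuclear subunits of complex I, which pass electrons from NADH into the same chain, stood close to the members described above. Between genotypes under ASO Control, 3 fell (7.89%, against 16.4% of all genes) and 0 rose, with a median log2FC of -0.08, and with ASO1 in the mutant 12 rose (31.6%, against 6.96% of all genes) and 0 fell, with a median of 0.21 and all 38 above 0. Their summed level was 7139 to 8033 CPM in WT ASO Control, 6393 to 7643 CPM in Dnm2SL/+ ASO Control and 7357 to 8963 CPM in Dnm2SL/+ ASO1. Of 77 tested genes of the mitochondrial ribosome, which translates the mitochondrially encoded subunits, 8 rose (10.4%) and 7 fell (9.09%) between genotypes (median 0.00), both below the 15.7% and 16.4% of all genes, and 13 rose (16.9%) and 1 fell with ASO1 in the mutant (median 0.11).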
